A study of Mus musculus with 6 samples.

Results

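The collagen genes of the mouse heart ventricle were compared between 3 control and 3 null-labelled libraries of embryonic day 17.5. The set was every gene whose symbol has the form Col, a number, a and a number, which gave 44 genes among the 25006 listed in each count file. Of these, 41 reached the required total of 60 counts over the 6 libraries and were tested, as part of 14773 genes tested in all. By the type of assembly their proteins are known to form, 11 were placed in the fibrillar class, 6 in the basement membrane class, 6 in the beaded filament class and 21 in a mixed class called other.

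Collagens are the main structural proteins of the extracellular matrix. Each molecule is a triple helix of 3 chains, which may be products of 1 gene or of several, and the helix can form only because each triplet of amino acids in the repeat begins with glycine, the smallest one. Collagens I and III form the load-bearing fibrils between heart muscle cells and are made mostly by cardiac fibroblasts. Collagen IV forms the sheet-like basement membrane around muscle cells and vessels, and collagen VI forms fine beaded filaments that link fibrils to cells.

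All embryos were on the NMRI background and came, per the protocols, from crosses of Prox1 f/f females with VecadCreERT2; Prox1f/f males. The 3 control libraries carry the genotype label WT, and the 3 null libraries carry the label VecadcreERT2; Prox1f/f, in which Cre recombinase is driven by the endothelial VE-cadherin promoter and is switched on by tamoxifen to remove Prox1, the regulator of lymphatic endothelial identity. Tamoxifen (5 mg per 40 g body weight) was injected into the dams of both groups at E13.5 and E14.5 (embryonic days), so the controls were exposed to it too. Only the null label includes Cre, so effects of Cre and of Prox1 removal cannot be told apart. The labels do not say that libraries came from separate embryos. Y-linked counts were 11143, 8735 and 175 in controls 1, 2 and 3 and 9218, 190 and 9952 in nulls 1, 2 and 3. Neither group therefore came from a single embryo. Whether controls 1 and 2, or nulls 1 and 3, are separate embryos is not known. The p-values measure only the spread between these libraries, and part of it may be technical. The purpose stated for the series was to find molecular pathways under the control of cardiac lymphatics.

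Libraries held 35195544 to 44330594 counts, and 3 counts equalled 0.0682 to 0.0849 CPM (counts relative to library size, scaled by the trimmed mean of M values). Cardiomyocyte markers summed to 71769 to 77346 CPM in every library, whereas the lung gene Sftpc and the liver gene Alb stayed at or below 9.11 CPM. Prox1 itself, the gene targeted, had no loss of counts in the nulls: it stood at 147 ± 3.16 CPM in controls and 164 ± 3.91 in nulls (SD, n = 3; log2 fold change 0.15, edgeR adjusted p = 0.0293). A whole-gene count does not check a deletion of part of a gene. A count over whole ventricle also need not show a loss limited to endothelial cells, where the Cre is driven. Esr1, the mouse counterpart of the receptor domain in CreERT2, had 14, 9 and 19 counts in controls and 298, 244 and 290 in the null-labelled libraries. Null 1 and null 3 held Y-linked counts (9218 and 9952) together with Xist (1798 and 5738 counts), a pair of signals that did not occur together at such levels in the other 4 libraries, and results are therefore also given without them.

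The shared architecture of the family can be seen in the coding sequences. Shown are 7 of the 8 genes that passed the test below, with Col4a1 added as the main basement membrane chain. The stretches below are 30 codons each, read 5′ to 3′ from the principal transcript of GENCODE M21 (build GRCm38, coding strand). Those of Col4a1 and Col4a4 were placed around the first gap between 2 runs of 5 or more repeats. The others were placed at the start of the longest run. Their lack of gaps is therefore a matter of choice and does not show a difference between classes. Capitals mark the glycine codons (GGN) that open each triplet of a repeat of at least 3 glycines.
Col1a1, codons 168 to 197: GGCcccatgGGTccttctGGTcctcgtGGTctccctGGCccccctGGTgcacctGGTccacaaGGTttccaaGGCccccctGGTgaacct
Col5a3, codons 478 to 507: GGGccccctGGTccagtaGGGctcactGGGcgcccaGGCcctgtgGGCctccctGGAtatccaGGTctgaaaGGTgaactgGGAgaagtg
Col4a1, codons 151 to 180: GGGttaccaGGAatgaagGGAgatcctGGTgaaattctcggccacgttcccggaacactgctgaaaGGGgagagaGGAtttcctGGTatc
Col4a4, codons 156 to 185: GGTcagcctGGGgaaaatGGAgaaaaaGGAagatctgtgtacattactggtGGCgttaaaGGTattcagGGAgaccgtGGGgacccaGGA
Col6a1, codons 256 to 285: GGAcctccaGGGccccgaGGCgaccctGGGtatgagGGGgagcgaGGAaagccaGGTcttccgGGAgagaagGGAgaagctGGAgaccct
Col6a5, codons 1442 to 1471: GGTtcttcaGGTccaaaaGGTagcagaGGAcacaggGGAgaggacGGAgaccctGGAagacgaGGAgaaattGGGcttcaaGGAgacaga
Col6a6, codons 1391 to 1420: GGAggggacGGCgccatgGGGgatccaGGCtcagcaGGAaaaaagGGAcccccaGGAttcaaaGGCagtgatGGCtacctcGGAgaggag
Col26a1, codons 199 to 228: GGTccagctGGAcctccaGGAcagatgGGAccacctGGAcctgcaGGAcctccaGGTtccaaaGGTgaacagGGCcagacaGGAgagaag

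In most fibrillar genes nearly all repeats lay in 1 long run. The longest run was 338 repeats in Col1a1 and 337 in Col5a3, and it was 337 to 344 in all fibrillar genes except Col24a1 (216) and Col27a1 (217). The Col4a1 and Col4a4 stretches show the interruptions of basement membrane collagen, where the capitals stop and resume further on. Genes of that class had 23 to 27 separate runs, the longest of 39 to 66 repeats. Genes of other classes were interrupted too, such as Col16a1 (23 runs), Col6a5 (6) and Col6a6 (5). Col6a1 and Col6a2 had a longest run of 87 repeats, against 45 in Col6a3, 37 in Col6a5 and 42 in Col6a6. In all of these most codons lay outside repeats. The share in repeats was 31.9% in Col6a1 and in Col6a2, 12.3% in Col6a3, 12.2% in Col6a5 and 14.2% in Col6a6. Col26a1 had the shortest longest run of the genes shown, 23 repeats, and only 23.2% of its codons lay in repeats, against 73.3% in Col1a1.

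Levels of different collagens were compared per kilobase of merged exons. In controls the highest were the basement membrane chains Col4a1 (374 ± 21.7 CPM per kb) and Col4a2 (264 ± 13.6), followed by the fibril chains Col1a1 (261 ± 22.8), Col3a1 (255 ± 30.2) and Col1a2 (115 ± 14.0; SD, n = 3). The 4 highest genes held 63.3% of the summed per-kilobase level of the family, and the 10 highest held 89.2%. Col4a2, Col1a1 and Col3a1 lay within each other's spread, so their order is not resolved. It also depends on the length used: with the principal transcript in place of merged exons, Col3a1 came first at 450.4 CPM per kb, then Col4a1 at 422, Col1a1 at 289, Col4a2 at 271 and Col1a2 at 268.

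Below these, the collagen VI chains Col6a1 (96.4 CPM per kb) and Col6a2 (59.9), the fibril-nucleating chain Col5a1 (87.3), and the vessel-associated Col18a1 (59.2) and Col15a1 (53.5) formed a middle tier. With principal transcript lengths Col6a2 (126) lay above Col6a1 (103). Another 17 genes lay under 1 CPM per kb in controls. Among them were the cartilage fibril gene Col2a1 (0.254), the epithelial hemidesmosome gene Col17a1 (0.129) and the untested genes Col19a1, Col6a4 and Col10a1, a growth plate collagen, which had totals of 36, 34 and 15 counts over 6 libraries. The lowest genes that were still tested were Col6a5, Col22a1 and Col28a1, with totals of 115, 126 and 145 counts.

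**Figure D1:**
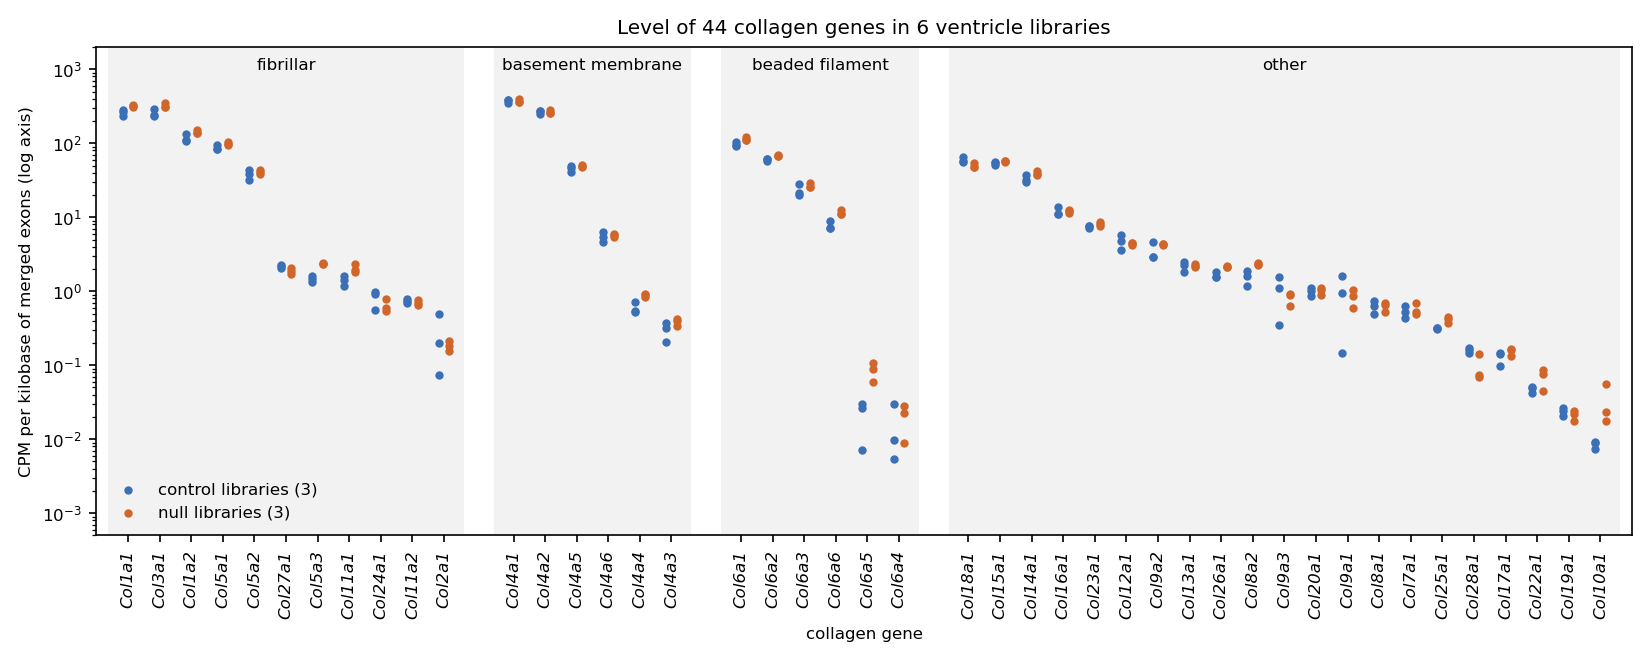
Level of each collagen gene in CPM per kilobase of merged exons (log axis), by class, with 1 point per library (3 control, 3 null-labelled). Levels run from 374 for Col4a1 to 0.00839 for Col10a1 in the control means, and for most genes the points of the 2 groups lie close together on this scale.

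The comparison of null-labelled with control libraries found 8 collagen genes higher and 0 lower, with 33 not past the threshold (edgeR quasi-likelihood F test, Benjamini-Hochberg adjusted p under 0.05 over all 14773 genes). These were Col5a3, Col26a1, Col6a6, Col4a4, Col1a1, Col6a5, Col6a1 and Col6a2. Over all genes, 794 were called (5.37%), of which 355 were higher (2.40%) and 439 lower (2.97%), while 19.5% of the tested collagens were called higher. For the count of 0 lower, DESeq2 called 1 collagen lower (Col18a1) and 13 higher, limma-voom called 9 in all, and 19 collagens had an unadjusted p under 0.05 in edgeR. The median log2 fold change was 0.13 over the 41 collagens and −0.00 over all genes, and 31 collagens were above 0 and 10 below. In 16 collagens every null-labelled library lay above every control, against 12.6% of all genes, and in 2 (Col18a1 and Col28a1) every null-labelled library lay below, against 14.0%.

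The number of calls depended on single libraries. Without control 3 it was 16, without control 1 it was 3 (Col26a1, Col5a3 and Col6a2), and without control 2, null 1, null 2 or null 3 it was 1 each time, Col5a3. With null 1 and null 3 both omitted no collagen passed edgeR's threshold, 10 had an unadjusted p under 0.05, and the family median was 0.13. The median was 0.27 without control 3. The fit without null 1 and null 3 rests on a single null-labelled library, which is assumed to vary like the controls, and only 35 genes were called in all.

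**Figure D2:**
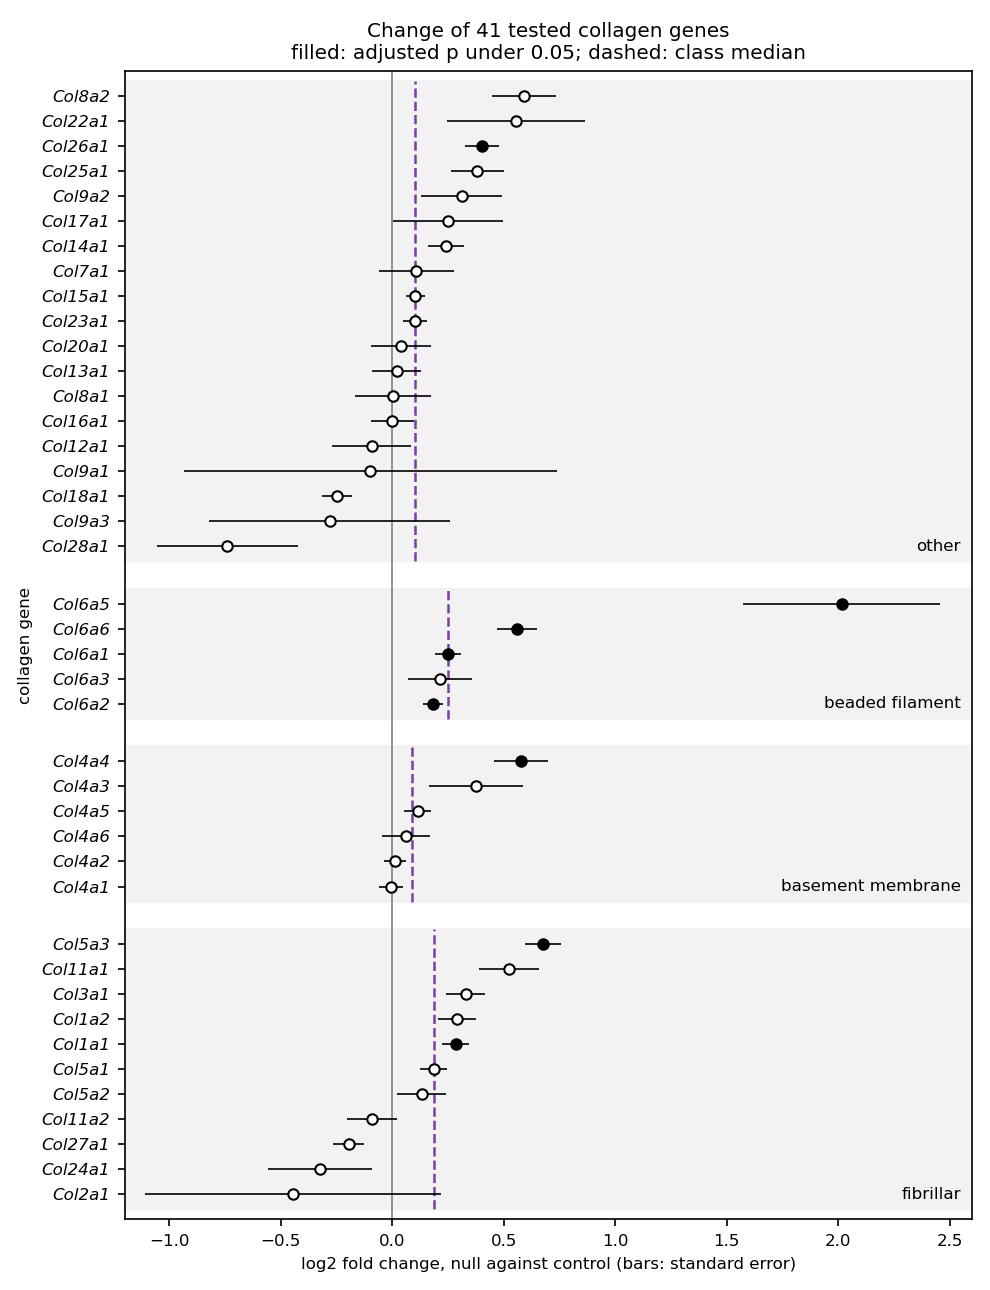
Log2 fold change of the 41 tested collagen genes, null-labelled against control, by class; bars are the standard error, filled points passed an adjusted p of 0.05 and dashed lines are class medians. All 5 beaded filament genes lie right of 0 and 4 are filled, whereas the abundant basement membrane chains Col4a1 and Col4a2 lie on 0.

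The fibrillar class was higher in sum: its 11 genes together gave 6826 ± 701 CPM in controls and 8311 ± 418 in null-labelled libraries (SD, n = 3), a ratio of 1.22. The sums were 6561, 6296 and 7620.5 CPM in controls and 8794, 8091 and 8048 in nulls, without overlap, and control 3 was the nearest to the nulls. Most of the sum came from Col3a1, Col1a1 and Col1a2 (control means 2506, 1713 and 1435 CPM). Of the class, 2 genes passed edgeR's test and the median log2 fold change was 0.19. Without control 3 the median was 0.35 and 6 genes passed. DESeq2 also called 6, adding Col3a1, Col1a2, Col5a1 and Col11a1 to the 2.

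Col1a1 encodes the main chain of collagen I and lies at chromosome 11, 94936224 to 94953042, plus strand. It stood at 1739, 1552 and 1848 CPM in controls and at 2127, 2077 and 2057 in null-labelled libraries. The groups did not overlap, the nulls were closer together than the controls, and the log2 fold change was 0.28 ± 0.06 (SE, adjusted p = 0.0277). Its partner chain Col1a2 stood at 1354, 1316 and 1635 CPM in controls and 1872, 1711 and 1689 in nulls. These groups did not overlap either, but control 3 lay nearer to the nulls than to the other controls, and the log2 fold change of 0.29 ± 0.09 missed the threshold (adjusted p = 0.10). Collagen I is built from 2 Col1a1 chains and 1 Col1a2 chain. The ratio of their per-kilobase levels was 2.27 ± 0.149 in controls and 2.25 ± 0.0865 in nulls, with overlapping groups, and it was 1.08 in controls when principal transcript lengths were used. The ratio's size therefore depends on the gene model. Its relative change between groups cannot, because each gene is divided by the same length in every library.

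Col3a1, the chain of the finer collagen III fibrils, had the same layout: 2379.7, 2294 and 2845 CPM in controls against 3399, 3042 and 3009.9 in nulls. The lowest null lay just above control 3, and the log2 fold change was 0.33 ± 0.09 (adjusted p = 0.0814).

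Collagen V starts and limits fibril growth. Of its 3 chains 1 passed edgeR's test. Col5a3, at chromosome 9, 20770050 to 20815067, minus strand, had the lowest adjusted p of the family, with 479, 330 and 348 counts in controls and 630, 575 and 676 in nulls. Scaled to depth this was 10.9, 9.17 and 9.85 CPM against 15.7, 15.8 and 16.4, a log2 fold change of 0.68 ± 0.08 (SE, adjusted p = 0.00257). It kept its call when any 1 library was left out, and lost it with null 1 and null 3 both omitted (adjusted p = 0.145). Col5a1, with 717, 702 and 805 CPM in controls and 895, 819.8 and 815 in nulls, did not pass (log2 fold change 0.19, adjusted p = 0.115), and neither did Col5a2 (0.13, adjusted p = 0.574). Col5a3 was a minor chain: its per-kilobase level was 0.0168 of that of Col5a1 in controls and 0.0236 in nulls, and this ratio was higher in every null-labelled library than in every control.

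The other fibrillar genes did not pass edgeR's test. Col11a1, a chain that can replace collagen V chains in fibrils, stood at 15, 17.9 and 20.6 CPM in controls and 24.3, 23.0 and 29.4 in nulls (log2 fold change 0.52 ± 0.13, adjusted p = 0.0752). DESeq2 called it (adjusted p = 0.00126), as did edgeR without control 3 (adjusted p = 0.0285). Below 0 were Col27a1 (−0.20), Col24a1 (−0.32), Col11a2 (−0.09) and Col2a1 (−0.44), with standard errors from 0.07 for Col27a1 to 0.66 for Col2a1.

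**Figure D3:**
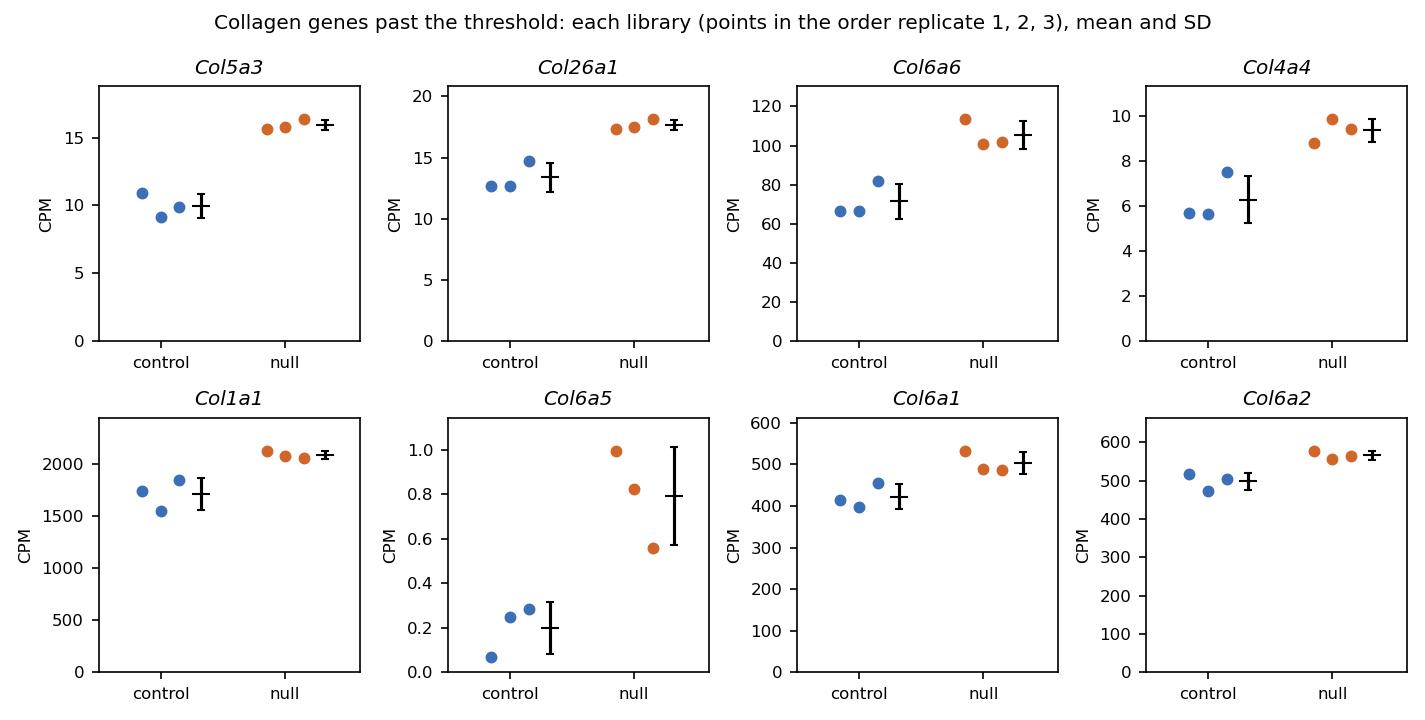
CPM per library of the 8 collagen genes that passed the test, each on its own axis, with 3 control and 3 null-labelled points, the group mean and its SD. In each panel all null-labelled points lie above all control points, and Col6a5 lies below 1 CPM throughout.

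Of the collagen VI genes, 4 of 5 tested passed, and the median over the 5 was 0.25 (log2 fold change). The count was 5 without control 3 (median 0.38), 1 without control 1, and 0 without control 2 or any 1 of the nulls. DESeq2 called 3 and gave no adjusted p for Col6a5. Col6a1, Col6a2 and Col6a3 form the classic collagen VI molecule. The first of them, at chromosome 10, 76708792 to 76726168, minus strand, stood at 413, 397 and 456 CPM in controls and 533, 488 and 486 in nulls (log2 fold change 0.25 ± 0.06, SE, adjusted p = 0.0415). Col6a2, its neighbour at chromosome 10, 76595762 to 76623630, stood at 517, 474 and 504 CPM in controls and 578, 556 and 563 in nulls, a smaller difference of 0.18 ± 0.04 with a similar adjusted p of 0.0456. Col6a3 stood at 236, 254 and 334 CPM in controls and 349, 303 and 304 in nulls. There control 3 lay above 2 of the 3 nulls, and the log2 fold change of 0.21 ± 0.14 did not pass (adjusted p = 0.476). The per-kilobase ratios of Col6a1 to Col6a2 (1.61 in controls and 1.69 in nulls, or 0.816 and 0.855 with principal transcript lengths) and of Col6a3 to Col6a1 (0.237 and 0.232) overlapped between the groups.

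Col6a4, Col6a5 and Col6a6 encode chains related to that of Col6a3 and lie side by side on chromosome 9. Col6a6, at 105687809 to 105828160, minus strand, was the abundant one: it stood at 66.5, 66.3 and 81.7 CPM in controls and 113, 101 and 102 in nulls (log2 fold change 0.56 ± 0.09, SE, adjusted p = 0.0200). Its ratio to Col6a3 went from 0.343 ± 0.0239 in controls to 0.432 ± 0.00627 in nulls, with every null-labelled library above every control. Col6a5, at 105856078 to 105960643, had only 3, 9 and 10 counts in controls and 40, 30 and 23 in nulls. The depth-scaled count ratio was 4.14, with a 95% exact interval of 2.58 to 6.91 that covers counting error only, and the adjusted p was 0.0313. Even in the nulls its level was 0.0842 CPM per kb, against 26.6 for Col6a3. Col6a4 had too few counts to test.

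The basement membrane class was level between the groups in sum, and most of that sum came from Col4a1 and Col4a2 (control means 2791 and 1747 CPM). Of its 6 genes, 5 had a log2 fold change above 0. Col4a4 alone was called higher, 16.7% of the class against 2.40% of all genes. Its summed CPM was 4896 ± 282 in controls and 4935 ± 221 in null-labelled libraries (SD, n = 3), a ratio of 1.01. The median log2 fold change was 0.09, and it ran from 0.01 without control 2 to 0.18 without control 3. Col4a1 and Col4a2, the chains of the common collagen IV network, stood at 2883, 2604 and 2886 CPM against 2952, 2687 and 2709.8, and at 1816, 1645 and 1779 against 1846, 1722 and 1721. Their log2 fold changes were −0.00 ± 0.05 (adjusted p = 0.977) and 0.01 ± 0.05 (adjusted p = 0.917; SE). At this precision a rise as large as that of Col1a1 would lie several standard errors away.

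These 2 genes lie head to head on chromosome 8, with starts 21 bases apart on opposite strands. The per-kilobase ratio of Col4a1 to Col4a2 was 1.42 ± 0.0192 in controls and 1.40 ± 0.0176 in nulls, the narrowest spread, relative to its mean, of any chain pair compared. The strand setting of the counting is not given in the sources used here, so reads from the short stretch where the genes overlap cannot be assigned.

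The minor collagen IV chains are arranged in the same way. Col4a4, at chromosome 1, 82448423 to 82586849, minus strand, encodes a chain best known from the kidney filter, where it pairs with the products of Col4a3 and Col4a5. It had 251, 203 and 265 counts in controls and 354, 358 and 389 in nulls, or 5.70, 5.64 and 7.50 CPM against 8.80, 9.85 and 9.42, and rose by 0.58 ± 0.12 on the log2 scale (SE, adjusted p = 0.0276). Col4a3, whose start lies 72 bases away on the other strand, stood at 2.02, 3.19 and 3.68 CPM in controls and 3.38, 4.15 and 3.95 in nulls. The groups overlapped and the log2 fold change of 0.38 ± 0.21 did not pass (adjusted p = 0.353). Col4a5 (312, 276 and 328 CPM against 334, 336 and 322) and Col4a6 (42.9, 36.5 and 49.9 against 46.6, 45.5 and 42.8) also overlapped. Both lie on the X chromosome, and the groups were not uniform in Xist and Y-linked counts. Col4a4 was a trace chain, at 0.00158 of the per-kilobase level of Col4a1 in controls and 0.00237 in nulls. The ratio of Col4a3 to its partner Col4a4 was 0.501 ± 0.114 in controls and 0.435 ± 0.0223 in nulls (SD), with overlapping groups.

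In the mixed class 1 of 19 tested genes passed, and the summed level was 1255 ± 85.7 CPM in controls and 1267 ± 51.0 in nulls. The gene was Col26a1 at chromosome 5, 136741759 to 136883209, minus strand, a little-studied collagen known from testis and ovary. It had 559, 457 and 521 counts in controls and 697, 637 and 749 in nulls, which is 12.7, 12.7 and 14.7 CPM against 17.3, 17.5 and 18.1 (log2 fold change 0.40 ± 0.08, SE, adjusted p = 0.0187).

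Col18a1 and Col15a1 encode the 2 multiplexins, basement membrane proteoglycans whose C-terminal fragments are endostatin and a related peptide. They lay on opposite sides of 0. Col18a1 stood at 404, 389 and 453 CPM in controls and 376, 335 and 339 in nulls, every null below every control, with a log2 fold change of −0.25 ± 0.07 that missed the threshold (adjusted p = 0.0643). Col15a1 stood at 340.3, 355 and 324 CPM in controls and 371, 368 and 357 in nulls, every null above, with a log2 fold change of 0.10 ± 0.04 (adjusted p = 0.222). The ratio of Col18a1 to Col15a1 per kilobase was 1.11 ± 0.14 in controls and 0.866 ± 0.0463 in nulls, without overlap. Col18a1 overlaps Slc19a1 on the opposite strand, so part of its counts may belong to that gene.

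Among the fibril-associated collagens that sit on the surface of fibrils, 0 of 8 passed edgeR's test and 1 had an unadjusted p under 0.05, which was Col14a1. DESeq2 called that gene, and limma-voom did not. Col14a1 stood at 212, 225 and 261 CPM in controls and 295, 265 and 266 in nulls (log2 fold change 0.24 ± 0.08, adjusted p = 0.144). Col12a1, a gene of dense connective tissue, ranged more widely in controls (54.7, 71.8 and 88.3 CPM) than in nulls (69.0, 63.8 and 68.4). Col16a1 had equal means of 80.8 CPM.

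Of the short-chain collagens, Col8a2 came closest to the threshold, at 5.36, 7.25 and 8.38 CPM in controls and 10.1, 10.5 and 10.9 in nulls (log2 fold change 0.59 ± 0.14, adjusted p = 0.0503). DESeq2 (adjusted p = 0.0050) and limma-voom (adjusted p = 0.0356) called it, and over all alternatives its adjusted p ran from 0.0050 to 0.46. Its partner Col8a1 had equal means of 4.87 CPM, and the ratio of Col8a2 to Col8a1 was 2.50 ± 0.0899 in controls and 3.81 ± 0.493 in nulls. The transmembrane collagens Col13a1, Col17a1, Col23a1 and Col25a1 did not pass. Col25a1 was nearest, at 4.14, 4.14 and 3.96 CPM in controls and 4.75, 5.47 and 5.74 in nulls (adjusted p = 0.0964). Col28a1, a collagen of peripheral nerve, had a log2 fold change of −0.74 ± 0.32 at under 1 CPM (adjusted p = 0.225).

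Col2a1, Col9a1 and Col9a3, which are among the collagens of cartilage fibrils, varied most between control libraries, relative to the mean, among the tested collagens. Col9a1 had 33, 173 and 288 counts in controls and 209, 110 and 181 in nulls. Col2a1 had 30, 66 and 160 in controls and 78, 53 and 70 in nulls, and Col9a3 followed with 59, 155 and 211 against 138, 88 and 148. In all 3 genes control 1 was the lowest library and control 3 the highest. Of the other collagens known from cartilage, Col9a2 had the same order in controls (8.91, 9.06 and 14.3 CPM). Col11a2 did not (5.39, 4.83 and 5.10 CPM). The cartilage proteoglycan gene Acan had the same order in controls, 4.34, 10.8 and 15.5 CPM, as did the cartilage link protein gene Hapln1, 1.55, 4.86 and 7.36. Matn1, a matrilin of mature cartilage, stayed at or below 0.0556 CPM, and of the 8 cartilage and tendon markers 0 of the 4 tested passed. Their part in the collagen values was not tested.

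**Figure D4:**
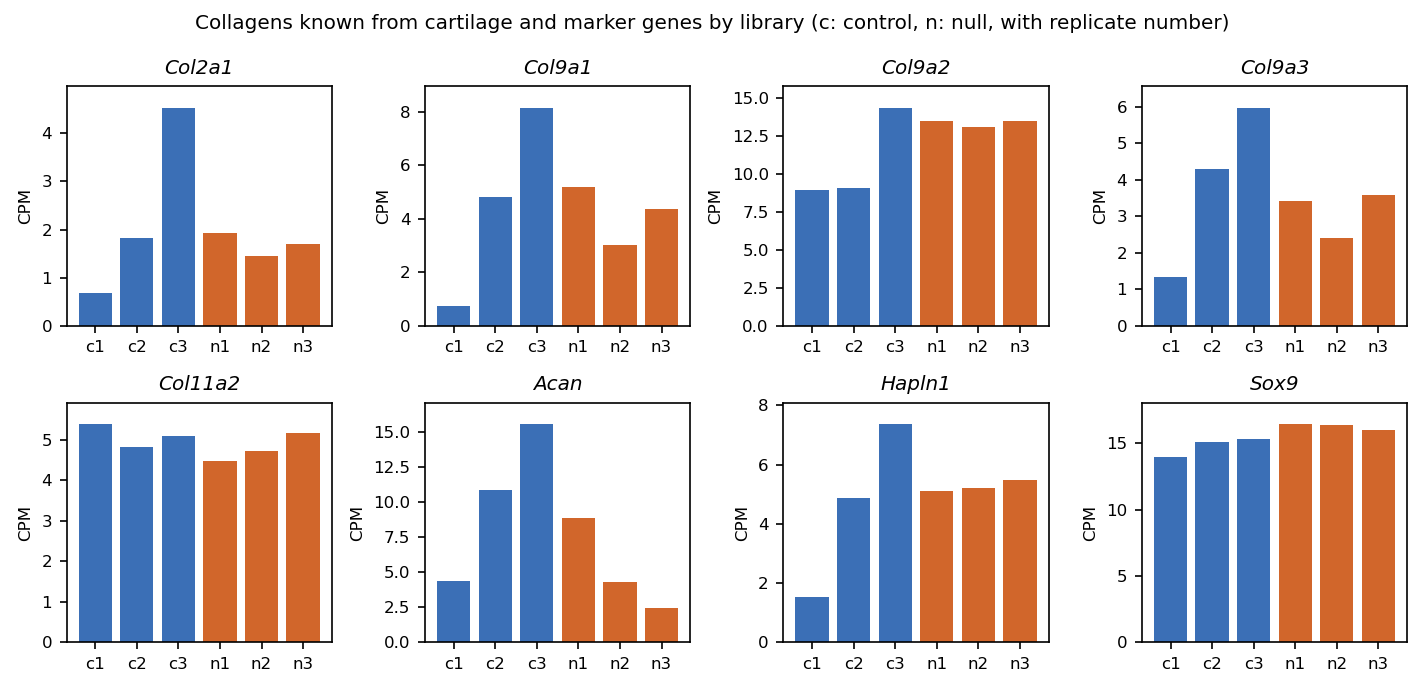
CPM per library (bars from 0, each panel on its own axis) of collagens known from cartilage and of the cartilage genes Acan, Hapln1 and Sox9, for control 1 to 3 (c1 to c3) and null 1 to 3 (n1 to n3). Control 1 is lowest and control 3 highest for Col2a1, Col9a1 and Col9a3, and the 3 null-labelled libraries lie between them. For Col11a2 control 1 is the highest library.

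The genes that build, process and bind collagen were counted next, from lists compiled for the pathway. Of all genes tested, 2.40% were called higher and 2.97% lower. Of 19 genes for chain modification and folding, such as the prolyl and lysyl hydroxylases and the chaperone Serpinh1, 0 passed edgeR's test and 3 had an unadjusted p under 0.05 (Colgalt1, Colgalt2 and P4ha2, all below 0), while DESeq2 and limma-voom called 0. Serpinh1 stood at 670 to 711 CPM in controls and 647 to 708 in nulls. Of 13 genes for secretion and propeptide removal 0 passed with edgeR, DESeq2 or limma-voom, and 1, Adamts3, had an unadjusted p under 0.05. Among 6 crosslinking genes Tgm2, a transglutaminase, fell by 0.25 on the log2 scale (adjusted p = 0.0200), and Lox, the main lysyl oxidase gene, did not pass (adjusted p = 0.969). The Tgm2 call was lost without control 2 or without any 1 of the nulls.

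Of 13 genes for other matrix proteins that bind fibrils, Tnxb, encoding tenascin-X, which ties collagen fibrils together, rose: it stood at 99.8, 88.0 and 105 CPM in controls and 136, 125 and 126 in nulls (log2 fold change 0.40, adjusted p = 0.0157). Of 12 basement membrane partners Lama2, the laminin chain of muscle, rose by 0.19 (adjusted p = 0.0207). The call of Tnxb was lost without null 2 or null 3, and that of Lama2 without null 1 or null 3. Among 11 genes for collagen breakdown 0 passed edgeR and limma-voom, DESeq2 called 2 higher (Mmp2 and Timp3) and 1 lower (Mmp15), and 4 had an unadjusted p under 0.05.

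Of 9 collagen receptors tested, 2 fell (over all genes 2.97% did), both integrin alpha chains that bind collagen directly. Itga2 stood at 34.3, 28.2 and 33.7 CPM in controls and 17.9, 15.8 and 19.1 in nulls (log2 fold change −0.86 ± 0.09, SE, adjusted p = 0.00232). Itga1 stood at 293, 261 and 298 CPM in controls and 230, 206 and 228 in nulls (log2 fold change −0.36 ± 0.06, SE, adjusted p = 0.0136). In both genes every null-labelled library lay below every control. The call of Itga2 held when any 1 library was left out, that of Itga1 was lost without null 2 or null 3, and both were lost with null 1 and null 3 omitted (where Ddr1, a receptor kinase high in null 2, was called higher). DESeq2 called the same 2 and, in addition, Mrc2 higher. Ddr2, the receptor kinase of fibroblasts for fibrillar collagen, did not pass (adjusted p = 0.793).

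Markers of the cell types a ventricle holds were measured beside these genes. For scale, 2.40% of all genes tested were called higher and 2.97% lower. Of 10 fibroblast markers that are not collagens, 3 rose (Dpep1, Pdgfra and Tcf21, by 0.69, 0.33 and 0.22 on the log2 scale), with a median of 0.23, and 7 did not pass. Their summed level was 2230.3 to 2561 CPM in controls and 2558 to 2938 in nulls, a slight overlap. Of 10 endothelial markers 6 fell (Sox17, Fabp4, Egfl7, Tie1, Tek and Pecam1), and the list's sum was 1786 to 2004 CPM in controls and 1478 to 1613 in nulls. Of 8 macrophage markers 5 rose (C1qa, C1qb, C1qc, Cx3cr1 and Mrc1), with sums of 76.1 to 87.2 and 97.0 to 121 CPM. Mural markers had 1 of 10 lower, Cspg4, and epicardial markers 2 of 10 lower, Krt19 and Upk1b. The Cspg4 call was lost without any 1 of the nulls, and no epicardial marker was called without control 1, null 2 or null 3, whereas Krt19 alone was called without control 3. Leaving out 1 library gave 1 to 3 fibroblast, 3 to 6 endothelial and 0 to 5 macrophage markers called; the lowest numbers came without null 2 (fibroblast), null 2 or null 3 (endothelial), and control 2, null 1 or null 2 (macrophage). With null 1 and null 3 both omitted only Fabp4 of these 5 lists was called. All these lists had members well above 0 in every library. In whole ventricle, fewer cells of a type and less RNA per cell cannot be told apart, and the part of these cell types in the collagen values was not tested.

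Control 3, the control nearest to the nulls for the abundant fibrillar genes, also had the highest erythroid marker sum, 5059.9 CPM, where control 1 had 1738, control 2 had 2882 and the nulls had 1202 to 1962. It differed in sex-linked genes too, with 49485 Xist counts against 28 and 29 in controls 1 and 2. Its Y-linked counts were 175, against 11143 and 8735. Null 2 resembled it in this (50586 and 190). Control 3 also had the most Alb (322 counts) and Afp (131) of any library. Removing the haemoglobin genes before scaling left 8 collagens called, the same 8. That step alters only the set of genes and the scaling. The part of blood content, or of the other traits of control 3, in the collagen values was not tested.

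Promoter windows from the RefSeq table for build GRCm38.p6 (250 bases before to 50 after the start) were found for 35 of the 44 genes, in 38 windows. The GC box GGGCGG, searched on both strands, occurred in 60.5% of the collagen windows and 35.7% of all 32851 windows. The box CCAAT occurred in 34.2% against 37.4%, and TATAAA in 13.2% against 13.6%. Of the called genes, Col5a3, Col6a2, Col6a5 and Col6a6 had a GC box in their window and Col4a4 and Col6a1 did not; Col1a1 and Col26a1 were not matched to a window. These matches are a description of the letters and not of binding.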

How the data were processed

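RNA sequencing of whole ventricle was available as 1 count file per library, 3 control and 3 null-labelled. The authors deposited raw whole-number counts per gene. The tools named in the submitters' processing notes are STAR, cutadapt 1.13, DESeq2 and HTSeq 0.6.1p1, and the build is mm10. What each tool did, the annotation release and the strand setting were not given in the sources used here. Of 25006 identifiers, 24991 were matched to symbols and coordinates in GENCODE M21, and all 44 collagen symbols of that annotation were found. All 13 mitochondrial genes were at 0 in every file.

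Genes with at least 60 counts over the 6 libraries were fitted together in R 4.3.3 with edgeR 4.0.16 (quasi-likelihood F test, robust, two-sided, group as the only term, scaling by the trimmed mean of M values). P-values were adjusted by Benjamini-Hochberg over all 14773 genes, and 0.05 was the threshold for a call. Each adjusted p comes from this test unless another tool is named. Standard errors are on the log2 scale. The test was tried on simulated counts first, where false calls were more frequent than the nominal rate, so calls near the threshold are less certain than their adjusted p states. Levels are CPM on the same scaling, and genes were compared with each other only per kilobase of merged exons. Intervals and floors cover counting error only.

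The members, classes, pathway lists and markers were chosen with earlier results of these data known. Named were all members, pathway and marker genes that passed, and a few others of the lists; per-library values are given for the called members, the 3 highest per class and their partner chains, and other members were given so after their values were seen. Sums, ratios and medians over members carry no test. Pairs of libraries within a group differed by more than counting noise (chi-square per degree of freedom 9.21 to 27.9), so no pair looked like a repeated deposit of 1 library; this does not show that they are separate embryos. Alternatives were other scalings, filters and tests (DESeq2 1.42.0 and limma-voom with limma 3.58.1), each library left out, a replicate term, a threshold of 0.1 and a fit without haemoglobin genes. Added after seeing the data were the omission of null 1 and null 3 and the use of principal transcript lengths. Of the marker lists, the Schwann list (3 tested), the endocardial and valve list (5), the erythroid list (5), the liver and yolk sac list (4) and the lung and thymus list (1) had 0 genes called, and the cardiomyocyte list had 1 of 8, Actc1, lower. Gpr126 was not matched.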

Additional observations from a re-analysis of the deposited data

How the results depend on the processing

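Of the alternatives, 8 collagens were called higher with upper quartile scaling, filterByExpr and haemoglobin genes removed, 9 with median-of-ratios scaling or limma-voom, 9 without a filter, 13 with DESeq2 and 12 at a threshold of 0.1. Leaving out 1 library gave 1 to 16 collagens called higher, and omitting null 1 and null 3 gave 0. Collagens called lower numbered 1 without a filter, with DESeq2 and at a threshold of 0.1, Col18a1 each time. Over all genes the 794 calls became 246 to 934 with 1 library left out, 35 with null 1 and null 3 omitted and 1426 at the threshold of 0.1. The fibrillar median log2 fold change of 0.19 was 0.14 to 0.35 with 1 library left out. Col6a5 could be compared under only 13 of the 15 alternatives. DESeq2 gave it no adjusted p, and it had too few counts to test with null 1 and null 3 omitted. For the 8 called genes over 15 alternatives, 75 of 118 values stayed past the threshold, 43 did not and 0 changed sign. The cause of these changes was not tested beyond the smaller number of libraries.

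No pairing by the replicate numbers in the labels was seen: the correlation of deviations between same-numbered libraries was −0.0391, −0.129 and −0.19. It was 0.152 between control 3 and null 2, which were alike in sex-linked counts. Such traits of single libraries enter these correlations, so they cannot decide whether same-numbered libraries share a batch. With the replicate block 7 collagens were called higher and 0 lower, adding Col11a1 and Col8a2 and losing Col6a1, Col6a2 and Col6a5. Under the block the all-gene count was 573 and Col9a1 had a log2 fold change of 0.18.

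Some uncalled collagens changed sign under some settings, and not all of them were near 0. In the main fit Col22a1 was at 0.56 ± 0.31, Col2a1 at −0.44 ± 0.66 and Col9a3 at −0.28 ± 0.54 (log2 fold change, SE). Col4a1 had a log2 fold change of 0.0005 with median-of-ratios scaling and with DESeq2, and 0.0052 with upper quartile scaling. With limma-voom Col2a1 was at 0.010, Col9a3 at 0.021 and Col9a1 at 0.55. With null 1 and null 3 omitted Col4a2 was at −0.017, Col16a1 at −0.068, Col13a1 at −0.027, Col7a1 at −0.089 and Col22a1 at −0.073. With 1 library left out the ranges were −0.050 to 0.025 for Col4a1, −0.026 to 0.043 for Col4a2, −0.043 to 0.18 for Col4a6, −0.90 to 0.47 for Col2a1, −0.060 to 0.13 for Col16a1, −0.25 to 0.092 for Col12a1, −0.087 to 0.12 for Col13a1, −0.70 to 0.19 for Col9a3, −0.057 to 0.14 for Col20a1, −0.62 to 0.64 for Col9a1, −0.14 to 0.16 for Col8a1 and −0.044 to 0.27 for Col7a1. None of these genes passed the threshold under any of the alternatives at 0.05. At this depth genes under 3 counts, 0.0682 to 0.0849 CPM, could not be measured.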
